A study of Mus musculus with 24 samples.

Results

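Plch2, Kcnk12, Unc45b, Amigo2, Cttnbp2nl and Kynu are 6 mouse genes with known roles outside blood progenitors, in neurons, muscle, cell adhesion or tryptophan breakdown. They were picked from this RNA-seq data set as genes near 0 in control cells and much higher in cells expressing MLL::ENL. They are 6 of the 55487 genes in the count table, and all 6 were among the 18931 genes that passed the filter on low counts. Because the choice read the level of these genes in MLL::ENL and control cells, that contrast is described here without a test. Near 0 in controls was true of Plch2, Kcnk12, Unc45b and Amigo2. It was not true of Cttnbp2nl, which averaged up to 3.45 CPM (read counts scaled to a common library total) in a control group, nor of Kynu, which averaged up to 5.55 CPM.

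The cells were LSK progenitors, which lack lineage markers and carry Sca1 and KIT, the fraction that holds blood stem cells and early multipotent progenitors. They came from mice with a Tet-On MLL::ENL allele (ME) or from control mice, at embryonic day 16 (E16, liver), postnatal day 14 (P14, bone marrow) and 8 weeks (8wk, bone marrow). The fusion was induced after sorting, in culture, and the cells were cultured for 48 h. The 6 groups were thus E16 ME, P14 ME, 8wk ME, E16 control, P14 control and 8wk control, with 4 libraries each. Whether control cells carried any of the Tet-On alleles or received the inducer is not given in the sources used here. The fusion came from a switched transgene in cultured cells, not from a rearranged chromosome in an animal. E16 cells came from liver and the others from marrow, so age and tissue cannot be told apart in any comparison with E16. The labels do not say that replicates were separate animals, so p-values measure only the spread between these libraries.

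MLL::ENL joins the DNA-binding part of the histone methyltransferase KMT2A to ENL (Mllt1), a reader of acetylated chromatin. ENL brings in the transcription elongation machinery and the H3K79 methyltransferase DOT1L, and the fusion drives leukaemia in infants and adults. Its best known targets are Hoxa genes and Meis1, none of which is among the 6 genes.

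The libraries held 33.9 to 69.3 M counts (median 47.1 M), and between 22259 and 25501 genes had a count. Mllt1 was at 35.7 to 89.3 CPM in the 12 ME libraries, against 9.90 to 29.8 CPM in the 12 control libraries, and was higher in every ME library than in every control of its own age. The species of the ENL sequence in the transgene is not given in the sources used here. E16 ME replicate 4 and 8wk ME replicate 4 had the lowest mean correlations with their group among ME libraries (0.965 each, log2 CPM), and 8wk control replicate 1 the lowest among controls (0.971). The next lowest, 8wk ME replicate 1, was at 0.969. Results that rest on the first 3 are given with and without them. The 7 LSK markers were present in every group and summed to 2357 to 2833 CPM in ME libraries against 2346 to 2873 CPM in controls at E16, 2230 to 2557 against 2541 to 2953 CPM at P14, and 2908 to 3564 against 1955 to 2306 CPM at 8wk, where the groups did not overlap. Kit, the stem cell factor receptor, rose at 8wk (1463 CPM in ME cells, 487 CPM in controls, edgeR adjusted p = 2.33e-06), as did Ly6a, which encodes Sca1 (292 and 140 CPM, adjusted p = 0.0055), and Procr rose at all 3 ages. Their part in the 8wk values of the 6 genes was not tested. In bulk RNA, fewer cells of a type and less RNA per cell cannot be told apart.

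The promoters of the 4 genes that were near 0 in controls at every age are shown because so few reads came from these genes in control cells. RefSeq windows (GRCm38.p6) of 250 bases before the transcription start are printed 5′ to 3′ on the strand of the gene, with CG dinucleotides in capitals. They lie at chr4:155019429-155019678 (Plch2, minus strand), chr17:87797995-87798244 (Kcnk12, minus strand), chr11:82911003-82911252 (Unc45b, plus strand) and chr15:97247288-97247537 (Amigo2, minus strand). The Plch2 and Unc45b windows lie before the RefSeq start but inside the gene as GENCODE annotates it, so the outermost GENCODE start of each is not in the sequence shown.
Plch2: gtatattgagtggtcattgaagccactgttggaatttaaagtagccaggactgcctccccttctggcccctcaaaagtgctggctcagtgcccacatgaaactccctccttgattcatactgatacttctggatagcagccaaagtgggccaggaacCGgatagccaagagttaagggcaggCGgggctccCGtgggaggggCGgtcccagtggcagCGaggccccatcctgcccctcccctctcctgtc
Kcnk12: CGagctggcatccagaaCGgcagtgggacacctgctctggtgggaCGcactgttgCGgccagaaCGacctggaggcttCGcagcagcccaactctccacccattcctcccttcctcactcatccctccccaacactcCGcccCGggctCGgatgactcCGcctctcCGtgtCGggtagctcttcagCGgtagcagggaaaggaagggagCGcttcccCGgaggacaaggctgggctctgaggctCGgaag
Unc45b: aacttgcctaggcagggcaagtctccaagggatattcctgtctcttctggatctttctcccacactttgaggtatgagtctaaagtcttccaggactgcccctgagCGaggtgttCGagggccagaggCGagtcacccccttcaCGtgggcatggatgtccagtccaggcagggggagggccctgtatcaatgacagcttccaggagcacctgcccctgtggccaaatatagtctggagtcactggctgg
Amigo2: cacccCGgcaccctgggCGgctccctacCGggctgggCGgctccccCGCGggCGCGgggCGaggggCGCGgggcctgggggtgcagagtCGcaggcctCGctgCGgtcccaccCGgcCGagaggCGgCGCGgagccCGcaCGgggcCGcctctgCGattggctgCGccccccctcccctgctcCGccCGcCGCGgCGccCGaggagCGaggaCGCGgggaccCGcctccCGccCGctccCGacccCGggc
The Amigo2 window held 38 CG dinucleotides, which placed it at percentile 98.1 of 32851 RefSeq windows, whose median was 6. Kcnk12 held 16, Plch2 held 5 and Unc45b held 4, so the 4 genes did not share a CG density. For the first Cttnbp2nl window, at chr3:105053147-105053396 on the minus strand, the count was 9.

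Motifs were searched on both strands of the 300-base windows, which add 50 bases after the start. The PBX-HOX core TGATTNAT occurred once in the printed Plch2 window and in no other window, and 3.22% of all windows held it. The MEIS core TGACAG occurred once in the Unc45b window, where 19.2% of all windows held it. CCAAT occurred once in the Amigo2 window, where 37.4% of all windows held it. TATAAA, found in 13.6% of windows, was in none of the windows of these 5 genes. RefSeq gives a second window for Plch2, in which CCAAT occurred once. In the second Cttnbp2nl window CCAAT occurred 2 times and the MEIS core once. GGAA, an ETS core found in 96.0% of windows, was present 2 times in the printed Plch2 window, 7 times in Kcnk12, 3 times in Unc45b and in each Cttnbp2nl window, and in neither the second Plch2 window nor that of Amigo2. No motif searched contains another, matches that overlap were each counted, and a match is a description, not a binding site. Kynu is named only.

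Plch2 (ENSMUSG00000029055) encodes phospholipase C eta 2, a calcium-sensitive enzyme known from neurons that cleaves PIP2 into IP3 and diacylglycerol. It lies at chr4:154983115-155056784 (GRCm38, minus strand) and its exons cover 8.112 kb. At E16, Plch2 was at 29.6, 42.5, 45.4 and 10.4 CPM in ME libraries 1 to 4, against 0.0698, 0, 0 and 0.0275 CPM in controls. At P14 it was at 14.3, 7.73, 0.794 and 1.36 CPM in ME libraries, against 0.0430, 0, 0 and 0 CPM in controls. At 8wk it was at 14.0, 11.0, 10.4 and 1.27 CPM in ME libraries, against 0, 0, 0 and 0.0429 CPM in controls. The controls held 5, 2 and 2 counts in all at E16, P14 and 8wk, and every ME library was above every control of its age. A count of 0, seen in 8 control libraries, allows up to 3 counts, or 0.0419 to 0.0923 CPM at these depths, by counting error only. Its log2 fold change, ME minus control, was 10.01 ± 1.21 (SE) at E16, the largest of all 18931 genes tested there, a value that depends on the prior count as its controls were so low. For edgeR values, SE here and below is the absolute log2 value divided by the square root of the test's F statistic. It is not a fitted standard error, and for genes near 0 in controls it is only a rough guide. At P14 and 8wk the controls held 2 counts each, so the ratio of pooled counts is given: 729 (95% counting interval 201 to 6029) at P14 and 963.5 (266 to 7963) at 8wk. At P14, ME replicates 1 and 2 were well above replicates 3 and 4.

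Kcnk12 (ENSMUSG00000050138) encodes THIK-2, a two-pore potassium channel subunit known from brain and other tissues. It lies at chr17:87745801-87797994 (minus strand) with exons of 1.972 kb and a transcript GC content of 69.4%. At E16, Kcnk12 was at 14.4, 9.41, 2.92 and 0.986 CPM in ME libraries 1 to 4, against 0.436, 0.0922, 0 and 0.275 CPM in controls. At P14 it was at 23.1, 9.84, 3.00 and 0.921 CPM in ME libraries, against 0.0859, 0, 0.151 and 0 CPM in controls. At 8wk it was at 18.6, 12.3, 2.98 and 0.460 CPM in ME libraries, against 0.237, 0.0262, 0.0349 and 0.0644 CPM in controls. At every age ME replicate 1 was the highest and ME replicate 4 the lowest, and all 4 ME libraries were above all controls. The log2 fold change was 5.03 ± 1.26 (SE) at E16, 7.24 ± 1.44 at P14 and 6.37 ± 1.36 at 8wk, and its ME libraries differed by up to 40.4-fold (highest over lowest, 8wk), more than those of any of the other genes at that age.

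**Figure D1:**
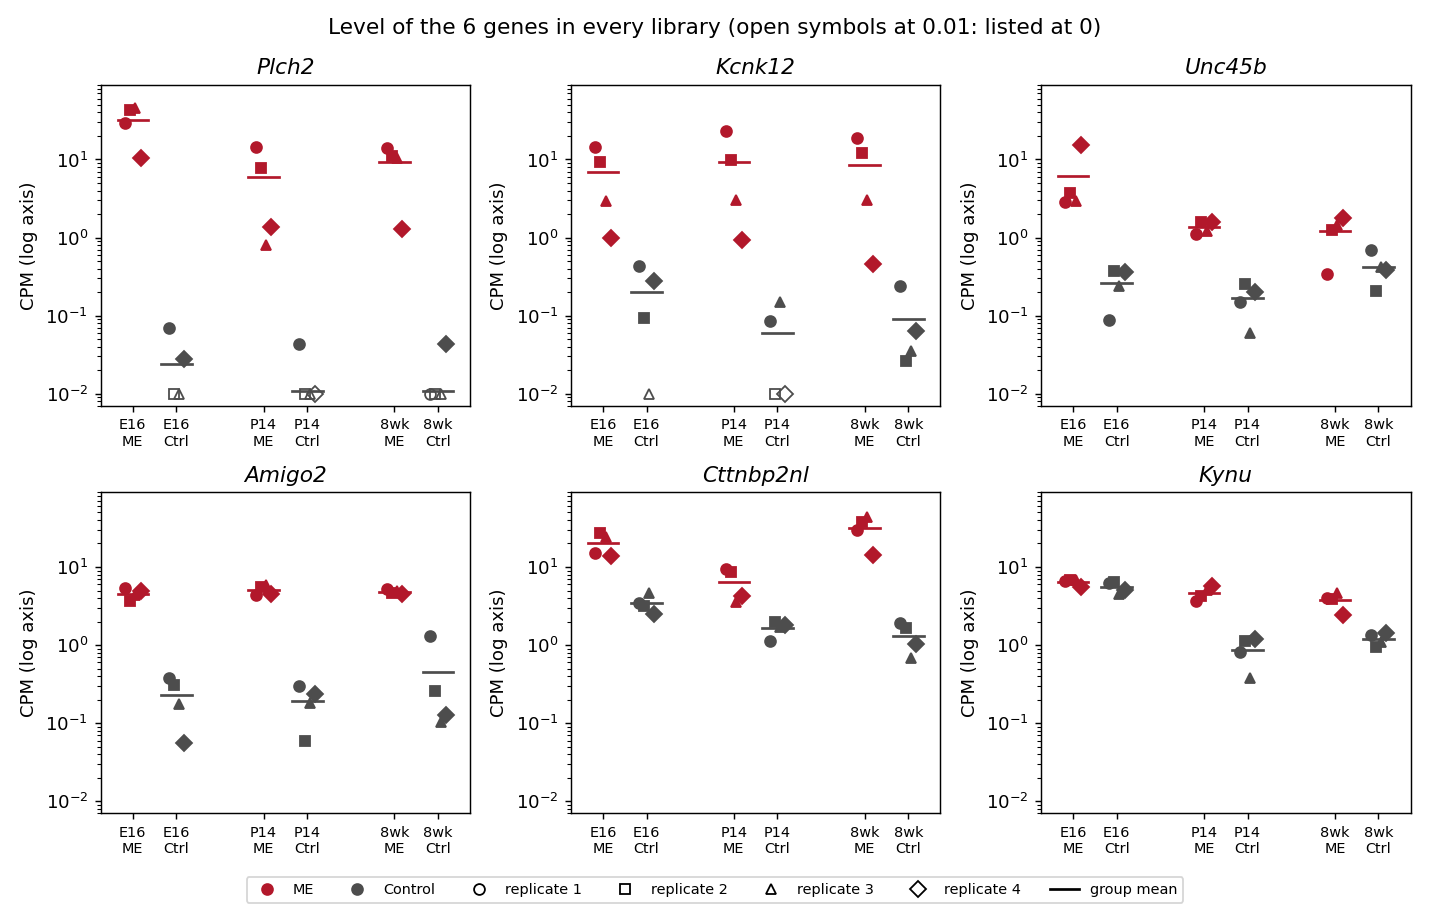
Level of the 6 genes in each of the 24 libraries, in CPM on a log axis, by age and group (4 libraries each, ME left of control; symbols give the replicate number, the line is the mean, open symbols at 0.01 are libraries at 0). Plch2, Kcnk12, Unc45b and Amigo2 sit at or below 1.33 CPM in every control library, while Cttnbp2nl and Kynu do not.

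Unc45b (ENSMUSG00000018845) encodes a chaperone that folds myosin heads in skeletal and heart muscle. It lies at chr11:82910550-82943403 (plus strand) with exons of 4.493 kb. At E16, Unc45b was at 2.88, 3.73, 2.94 and 15.3 CPM in ME libraries, against 0.0872, 0.369, 0.240 and 0.358 CPM in controls. At P14 it was at 1.12, 1.57, 1.21 and 1.59 CPM in ME libraries, against 0.150, 0.254, 0.0602 and 0.203 CPM in controls. At 8wk it was at 0.338, 1.26, 1.44 and 1.76 CPM in ME libraries, against 0.684, 0.210, 0.419 and 0.386 CPM in controls. Groups did not overlap at E16 and P14 but did at 8wk, where ME replicate 1 lay among the controls. The log2 fold change was 4.60 ± 0.63 (SE) at E16, 3.02 ± 0.61 at P14 and 1.46 ± 0.56 at 8wk. E16 ME replicate 4 was far above the other 3 ME libraries, and without it the E16 value was 3.64.

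Amigo2 (ENSMUSG00000048218) encodes a leucine-rich repeat and immunoglobulin domain adhesion protein known from neurons. It is a single-exon gene at chr15:97244125-97247287 (minus strand) of 3.163 kb. At E16, Amigo2 was at 5.35, 3.69, 4.35 and 4.88 CPM in ME libraries, against 0.384, 0.307, 0.174 and 0.0550 CPM in controls. At P14 it was at 4.35, 5.63, 5.82 and 4.56 CPM in ME libraries, against 0.301, 0.0598, 0.181 and 0.236 CPM in controls. At 8wk it was at 5.25, 4.67, 4.86 and 4.58 CPM in ME libraries, against 1.33, 0.262, 0.105 and 0.129 CPM in controls. Its ME level was the most even of the 6 genes across libraries at P14 and 8wk, with a highest to lowest ratio of 1.34 and 1.15. The log2 fold change was 4.26 ± 0.60 (SE) at E16, 4.73 ± 0.61 at P14 and 3.34 ± 0.56 at 8wk. One library, 8wk control replicate 1, stood above the other controls, and without it the 8wk value was 4.90.

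Cttnbp2nl (ENSMUSG00000062127) encodes a cortactin-binding protein of the STRIPAK phosphatase complex. It lies at chr3:105001915-105053146 (minus strand) with exons of 8.138 kb. At E16, Cttnbp2nl was at 15.0, 27.1, 24.2 and 13.8 CPM in ME libraries, against 3.42, 3.20, 4.66 and 2.50 CPM in controls. At P14 it was at 9.41, 8.66, 3.53 and 4.21 CPM in ME libraries, against 1.12, 2.00, 1.69 and 1.82 CPM in controls. At 8wk it was at 29.6, 37.8, 43.1 and 14.1 CPM in ME libraries, against 1.90, 1.68, 0.681 and 1.03 CPM in controls. No ME library overlapped the controls at any age, and the controls were not near 0. The log2 fold change was 2.54 ± 0.38 (SE) at E16, 1.95 ± 0.38 at P14 and 4.56 ± 0.42 at 8wk.

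Kynu (ENSMUSG00000026866) encodes kynureninase, which cleaves kynurenine and 3-hydroxykynurenine in tryptophan breakdown. It lies at chr2:43555329-43682715 (plus strand) with exons of 6.149 kb. At E16, Kynu was at 6.66, 6.84, 6.74 and 5.53 CPM in ME libraries, against 6.23, 6.46, 4.45 and 5.06 CPM in controls. At P14 it was at 3.62, 4.27, 5.00 and 5.64 CPM in ME libraries, against 0.816, 1.12, 0.376 and 1.18 CPM in controls. At 8wk it was at 4.04, 3.91, 4.60 and 2.42 CPM in ME libraries, against 1.35, 0.944, 1.08 and 1.44 CPM in controls. At E16 the groups overlapped, while at P14 and 8wk every ME library was above every control. The log2 fold change was 0.22 ± 0.26 (SE) at E16, 2.40 ± 0.28 at P14 and 1.63 ± 0.27 at 8wk. The smaller E16 difference lay beside a control mean of 5.55 CPM at E16, against 0.874 CPM at P14 and 1.20 CPM at 8wk.

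Across the 6 genes, all 4 ME libraries were above all 4 controls in 5 genes at E16, 6 at P14 and 5 at 8wk. The same held for 14.5%, 14.1% and 12.0% of all tested genes at E16, P14 and 8wk, and nothing is read from this for genes chosen on the same contrast. Means under 0.5 CPM in every control group and of at least 2 CPM in every ME group were seen in 14 genes, including Plch2, Kcnk12 and Amigo2. Loosening the ME limit to 1 CPM gave 47 genes and added Unc45b, and raising it to 5 CPM left only Plch2 and Kcnk12.

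**Figure D2:**
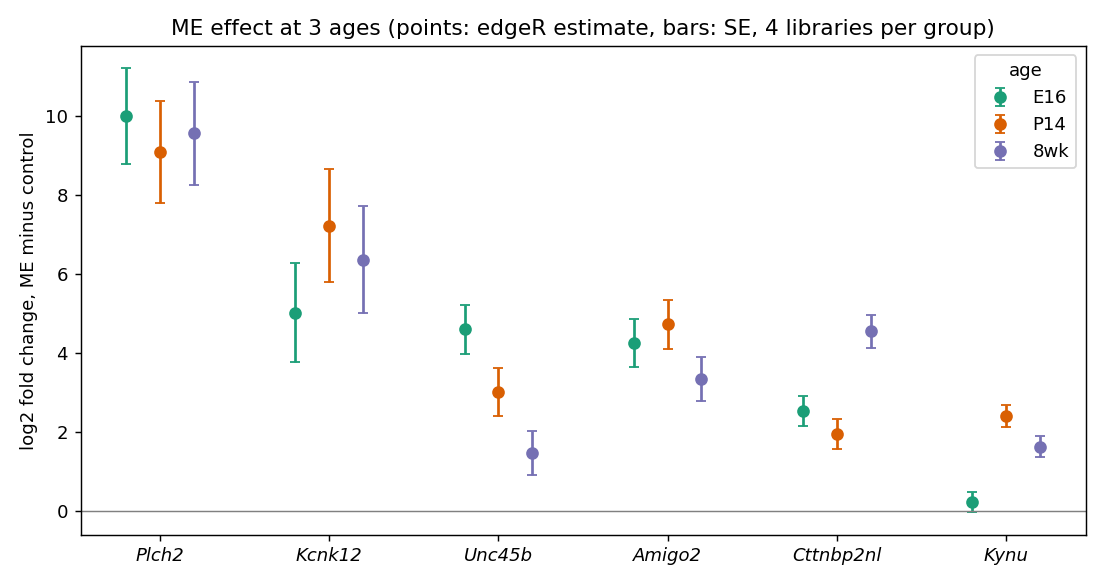
log2 fold change, ME minus control, of the 6 genes at the 3 ages (points are edgeR estimates, bars are SE derived from the F statistic, 4 libraries per group). Plch2 lies between 9.10 and 10.01, values that depend on the prior count because its controls held almost no reads, whereas Kynu lies at 0.22 at E16.

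Levels between genes were compared per kb of exon, as mean ± SD over 4 ME libraries. At E16 the order was Plch2 (3.94 ± 1.96 CPM per kb), Kcnk12 (3.52 ± 3.12), Cttnbp2nl (2.46 ± 0.812), Amigo2 (1.44 ± 0.226), Unc45b (1.38 ± 1.35) and Kynu (1.05 ± 0.0995), and neighbours in this order differed by less than the larger SD of the pair except Cttnbp2nl from Amigo2. At P14 Kcnk12 led (4.67 ± 5.07 CPM per kb), ahead of Amigo2 (1.61 ± 0.235), and Cttnbp2nl (0.793 ± 0.370), Kynu (0.754 ± 0.143) and Plch2 (0.745 ± 0.781) followed; of these neighbours, Amigo2 and Cttnbp2nl differed by more than the larger SD. At 8wk Kcnk12 (4.34 ± 4.25 CPM per kb) and Cttnbp2nl (3.83 ± 1.56) came before Amigo2 (1.53 ± 0.0949), Plch2 (1.13 ± 0.676), Kynu (0.609 ± 0.151) and Unc45b (0.267 ± 0.136). At 8wk Cttnbp2nl from Amigo2 and Kynu from Unc45b differed by more than the larger SD, and the other neighbours did not. Unc45b was last at 8wk and also at P14 (0.305 ± 0.0536 CPM per kb).

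The choice asked for a rise in ME cells and not for a difference between ages, and differences between ages were tested. They use the same ME and control values as the choice. A gene taken in for a rise at some ages is favoured to differ between ages. Nothing about the 6 genes is therefore read from how many were called or from single adjusted p-values, which are given as a description. This holds most for Kynu, whose ME and control libraries overlapped at E16 but not at P14 and 8wk. The tests were edgeR quasi-likelihood tests with Benjamini-Hochberg adjustment over all 18931 genes. First, the ME effect (ME minus control) was compared between ages. Kynu's effect was larger at P14 than at E16, by 2.19 ± 0.37 (log2, SE; adjusted p = 0.0268); it was the 1 member called, where 0.0211% of all genes were. Cttnbp2nl's effect was larger at 8wk than at P14, by 2.60 ± 0.53 (adjusted p = 0.0376); it was again the 1 member called, where 0.301% of all genes were. For 8wk against E16, none of the 6 was called by edgeR (background 0.850%), although 3 of 6 had an unadjusted p under 0.05 and DESeq2 called 3. These were Unc45b (-3.14 ± 0.81, adjusted p = 0.0601), Cttnbp2nl (2.02 ± 0.52, adjusted p = 0.0618) and Kynu (1.41 ± 0.37, adjusted p = 0.0614).

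Both calls depended on single libraries, while their direction was the same in every leave-one-out fit. The Kynu call at P14 against E16 was lost on leaving out 11 of the 16 libraries compared: E16 ME replicates 1 to 4, E16 control replicates 1, 2 and 4, P14 ME replicates 2, 3 and 4 and P14 control replicate 1. Over the 16 fits the log2 difference ran from 1.93 to 2.37 and the adjusted p up to 0.136. The Cttnbp2nl call at 8wk against P14 was lost on leaving out 12 of 16 libraries: P14 ME replicates 2, 3 and 4, P14 control replicates 2, 3 and 4, 8wk ME replicates 1, 2 and 3 and 8wk control replicates 2, 3 and 4. Its log2 difference ran from 2.40 to 2.84 and its adjusted p up to 0.113. With only the groups compared in the fit, the adjusted p was 0.10 for Kynu and 0.129 for Cttnbp2nl, and with no filter on low counts it was 0.0687 for Cttnbp2nl. For 8wk against E16, all 3 genes were called without 8wk ME replicate 4 (Unc45b 0.0297, Cttnbp2nl 0.0116 and Kynu 0.0161, adjusted p by edgeR), and Cttnbp2nl and Kynu without 8wk control replicate 1 (0.0245 and 0.0343).

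Second, the level in ME cells was compared between ages. At P14 against E16, 3 of the 6 genes were called, against 9.19% of all genes, all of them lower at P14: Plch2 fell by 2.40 ± 0.75 (log2, SE; adjusted p = 0.0489), Unc45b by 2.18 ± 0.54 (adjusted p = 0.0106) and Cttnbp2nl by 1.63 ± 0.37 (adjusted p = 0.00559). At 8wk against E16, 2 of 6 were called, against 15.2% of all genes: Unc45b at -2.37 ± 0.54 (adjusted p = 0.0042) and Kynu at -0.78 ± 0.26 (adjusted p = 0.0418). In these 2 groups same-numbered libraries deviated together, and with the replicate number as a block the Kynu call was lost (adjusted p = 0.0533) and Plch2 was called (-2.09, adjusted p = 0.0108). At 8wk against P14, 1 of 6 was called, against 11.4% of all genes: Cttnbp2nl rose by 2.27 ± 0.38 (adjusted p = 4.78e-04). The Cttnbp2nl values in ME cells passed the threshold under all 18 alternatives in both of these comparisons. Without E16 ME replicate 4 the Unc45b difference was -1.21 (adjusted p = 0.0925) at P14 and -1.41 (adjusted p = 0.0403) at 8wk. The Plch2 call was lost on leaving out any 1 of E16 ME replicates 1 to 3 or P14 ME replicates 2 to 4, and the Kynu call on leaving out any 1 of E16 ME replicates 1 to 3 or 8wk ME replicates 1, 2 and 4. With only the groups compared in the fit, the Plch2 (adjusted p = 0.193), Unc45b (0.0542 at P14 and 0.0639 at 8wk) and Kynu (0.0514) calls were lost, the Plch2 call also with DESeq2 (0.105) and with no filter (0.138), and the Kynu call with no filter (0.0835). Kcnk12 and Amigo2 were not called in any comparison of ages; their P14 against E16 differences in ME cells were 0.41 ± 0.99 and 0.16 ± 0.49.

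In P14 ME libraries, Xist was high and Y-linked transcripts near 0 in replicates 1 and 2, and the reverse held in replicates 3 and 4. Plch2 (14.3 and 7.73 CPM against 0.794 and 1.36) and Cttnbp2nl (9.41 and 8.66 CPM against 3.53 and 4.21) were higher in the first pair. Mllt1 was also higher there (89.3 and 73.7 CPM against 63.8 and 39.8). The other ages did not show this order. At E16 the only ME library high in Y-linked transcripts, replicate 2, had the highest Cttnbp2nl (27.1 CPM) and the second highest Plch2 (42.5 CPM). At 8wk the Y-high ME replicates 1 and 3 had 14.0 and 10.4 CPM of Plch2 and 29.6 and 43.1 CPM of Cttnbp2nl, and replicates 2 and 4 had 11.0 and 1.27 CPM and 37.8 and 14.1 CPM. With the Y-linked level as a covariate, an alternative added after the data were seen, the Plch2 and Cttnbp2nl calls in ME cells were still past the threshold, and the Kynu difference of effects at P14 against E16 was not (adjusted p = 0.0891).

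**Figure D3:**
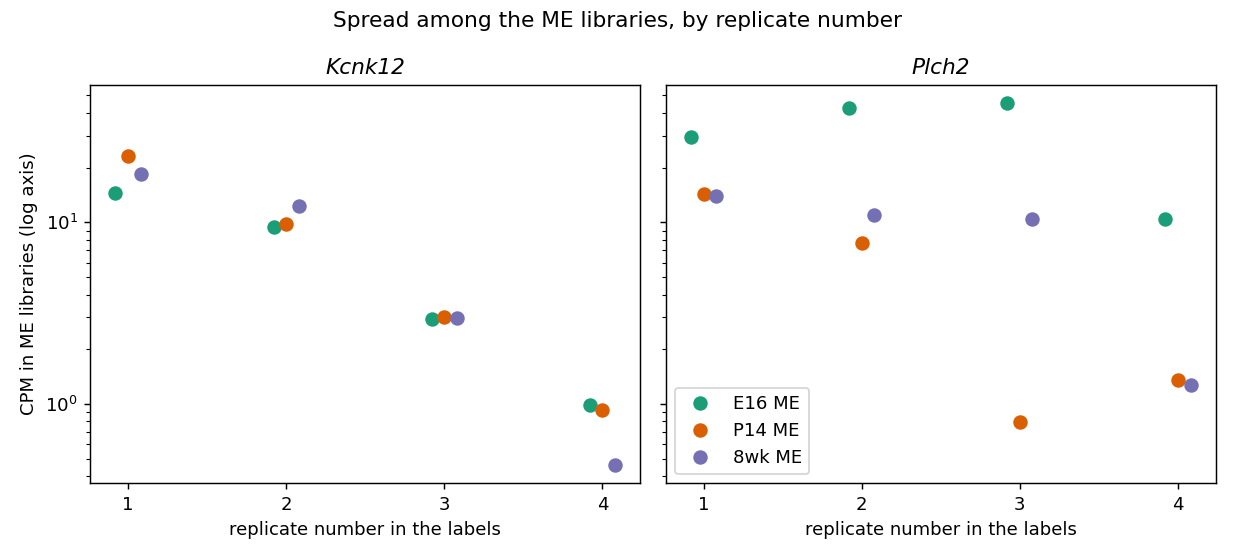
Kcnk12 and Plch2 in ME libraries by replicate number, in CPM on a log axis (points, colours are ages). Replicate 1 is the highest and replicate 4 the lowest for Kcnk12 at every age, while for Plch2 replicate 4 is the lowest at E16 and 8wk and replicate 3 at P14.

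Relatives and partners of the 6 genes were not part of the choice and were tested between ME and control cells. Of 11 tested phospholipase C family genes other than Plch2, 4 rose and none fell at E16, 4 rose and 1 fell at P14, and 4 rose and none fell at 8wk. Of all genes tested, 13.3% rose and 8.47% fell at E16, 12.7% and 9.35% at P14, and 14.2% and 14.3% at 8wk (21.8%, 22.0% and 28.5% in either direction), and these shares are the background of every list given here. Among them Plcg1, which acts downstream of receptor tyrosine kinases, rose by 1.55 ± 0.25 (log2, SE; edgeR adjusted p = 1.43e-04) at E16, at 45.0 ± 9.76 CPM in ME cells and 15.4 ± 2.84 CPM in controls (SD, n = 4 each). The gene that fell at P14 was Plcg2 (-0.61, edgeR adjusted p = 0.00826), at 297 CPM in ME cells and 455 CPM in controls. The summed CPM of the list overlapped between ME and control libraries at every age. The list's median log2 fold change was 0.43, 0.07 and 0.73, against 0.02, 0.03 and -0.02 over all genes. Of 21 genes of IP3 and diacylglycerol signalling, 3 rose at each age, close to the background, and 1 fell, at 8wk. Itpka, an IP3 kinase known from neurons, rose by 3.72 ± 0.70 at E16 (adjusted p = 5.62e-04), and Prkcb, a diacylglycerol-dependent kinase, by 3.39 ± 0.70 at P14 (adjusted p = 0.00143); Rasgrp4 fell at P14 only with the replicate block (-1.13, adjusted p = 0.0302).

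Of 6 tested two-pore potassium channels other than Kcnk12, none rose or fell at E16 and 8wk and 1, Kcnk9, rose at P14 (3.65 ± 0.96, edgeR adjusted p = 0.00966, at 0.284 CPM in ME cells), where Kcnk6 was also called with the replicate block (0.91, adjusted p = 0.0317). At an unadjusted p under 0.05 the list held 1 gene at E16 and 3 at 8wk, and DESeq2 called 0 at both ages. Of 5 tested chaperone genes listed with Unc45b, none rose at any age, and 4, 3 and 4 fell at E16, P14 and 8wk. Hsp90aa1, Hsp90ab1 and Ahsa1 fell at all 3 ages, and Cdc37 at E16 and 8wk. Unc45a, the other UNC45 gene, was not called at any age (edgeR adjusted p = 0.0645, 0.150 and 0.344). Hsp90aa1 and Hsp90ab1, the chaperones with which UNC45 works, fell by 0.60 and 0.63 on the log2 scale at E16 (adjusted p = 2.42e-04 and 8.00e-04), while Unc45b was higher in ME cells. Among 13 myosin heavy chains only 4 passed the filter, and Myh1, Myh2 and Myh4 were at 0 in every library. Of the 4, 1 rose and none fell at E16, 1 rose and 2 fell at P14, and 1 rose and 1 fell at 8wk. Myh10, another non-muscle myosin, fell at P14 (-1.30, adjusted p = 0.0339) and 8wk (-1.28, adjusted p = 0.0287), and Myh9 fell at P14 as well (adjusted p = 0.0478). Myh14, also a non-muscle myosin, rose by 2.87 ± 0.58 at E16 (adjusted p = 0.00115), 5.95 ± 0.72 at P14 and 4.48 ± 0.61 at 8wk. Its level was 1.23, 1.44 and 2.15 CPM in ME cells, against 0.174, 0.0204 and 0.0950 CPM in controls.

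Of 11 leucine-rich repeat adhesion genes other than Amigo2, 4 rose at E16 and P14 and 5 at 8wk, against 13.3%, 12.7% and 14.2% of all genes, and none fell. At P14 same-numbered ME and control libraries deviated together, and with the replicate block Amigo3 was not called there (adjusted p = 0.0518). Amigo1, its close relative, rose by 1.63 ± 0.24 at E16 (adjusted p = 4.24e-05), 2.19 ± 0.23 at P14 and 1.02 ± 0.23 at 8wk. Of 16 STRIPAK genes other than Cttnbp2nl, 5 rose and 1 fell at E16, 4 rose and 1 fell at P14, and 5 rose and 1 fell at 8wk, with list medians of 0.16, 0.08 and -0.06 against 0.02, 0.03 and -0.02 over all genes. The scaffold Strn3 rose to 64.7 CPM in ME cells, against 10.2 CPM in controls at E16 (2.66 ± 0.32, adjusted p = 6.69e-06). The phosphatase subunit Ppp2ca rose to 320 ± 207 CPM (SD) in E16 ME cells, against 36.2 ± 6.25 CPM in controls (3.14 ± 0.54, adjusted p = 3.49e-04). Ppp2r1a, another subunit of that phosphatase, fell at E16 (-0.35, adjusted p = 0.0157) and P14 (-0.47, adjusted p = 0.00186). The gene that fell at 8wk was Fgfr1op2 (-0.37, adjusted p = 0.0054). Of 8 other kynurenine pathway genes, Afmid rose at E16 (1.08 ± 0.36, adjusted p = 0.0341) and Kyat3 fell at 8wk (-0.54 ± 0.11, adjusted p = 7.69e-04), and none was called at P14 by edgeR or DESeq2, with 1 at an unadjusted p under 0.05.

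**Figure D4:**
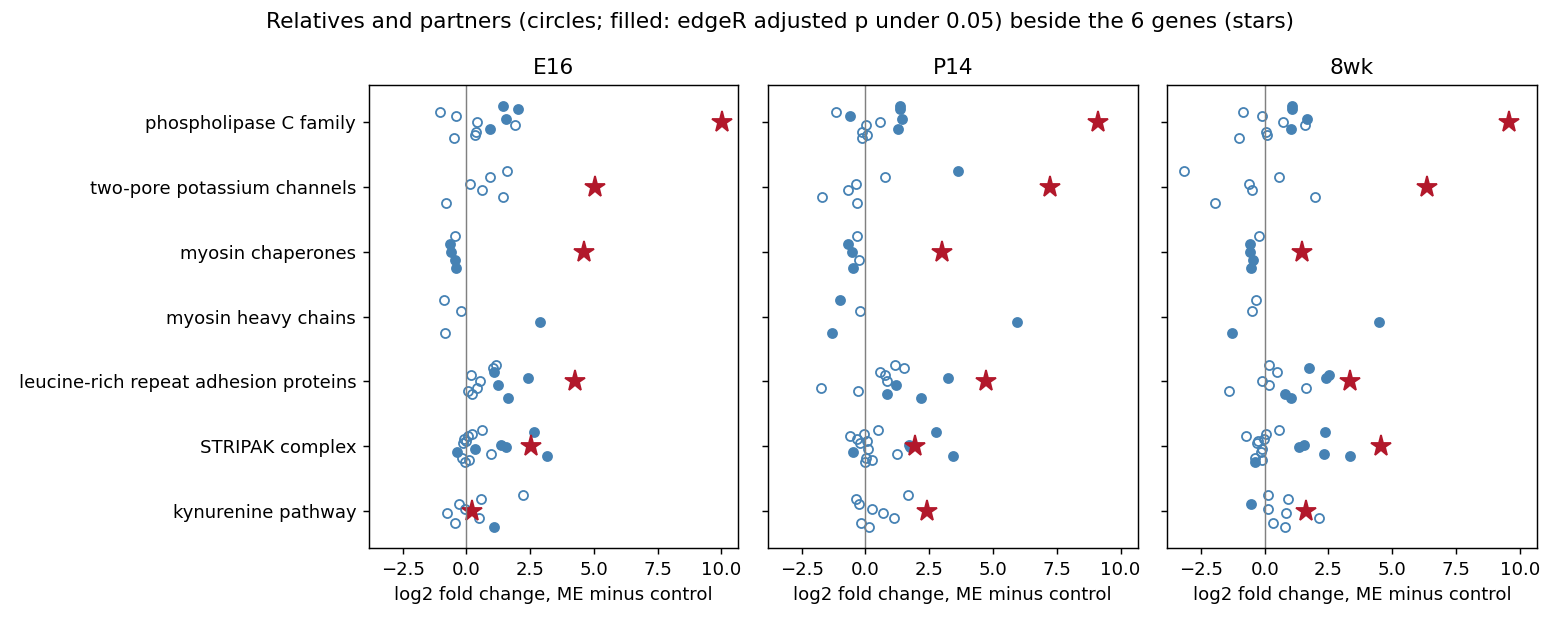
log2 fold change, ME minus control, of relatives and partners of the 6 genes (circles, filled where the edgeR adjusted p is under 0.05) and of the 6 genes (red stars), by age. The 6 genes were chosen for their fold change and the circles were not; the 1 myosin heavy chain that rose, Myh14, lies right of Unc45b at P14 (5.95 against 3.02) and 8wk (4.48 against 1.46).

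Genes of other cell types were checked with lists. Of 12 skeletal muscle markers, 6 passed the filter, none was called at E16 or P14 by edgeR or DESeq2 or at an unadjusted p under 0.05, and Tnni2 rose at 8wk (0.59 ± 0.16, edgeR adjusted p = 0.00854); the list summed to 11.7 to 25.6 CPM in ME libraries and 9.20 to 26.2 CPM in controls. Of 12 neuron markers, 5 passed the filter and 1, Slc17a7, rose at each age (1.87 ± 0.27 at P14, edgeR adjusted p = 3.44e-05). Tubb3 fell at E16 (-3.62 ± 0.71, adjusted p = 8.755e-04) and Elavl4 at 8wk (-1.54 ± 0.49, adjusted p = 0.0216). Monocyte and macrophage markers rose in 1, 3 and 9 of 13 genes at E16, P14 and 8wk and fell in none, where 13.3%, 12.7% and 14.2% of all genes rose; with the replicate block Itgam was also called at P14 (adjusted p = 0.00923). Cd14 averaged 71.1 ± 57.0 CPM in 8wk ME cells and 1.89 ± 1.88 CPM in 8wk controls (SD, n = 4 each). The list's sum ran from 112 to 651 CPM in E16 ME libraries and from 500 to 1409 CPM in E16 controls, and from 184 to 1177 CPM in 8wk ME libraries and from 174 to 866 CPM in 8wk controls. Lineage markers that the sort depletes summed to 8.76 to 45.6 CPM in ME libraries and 2.25 to 10.9 CPM in controls. Endothelial markers rose in 3, 1 and 3 of 9 genes, the P14 count being close to the background (with the replicate block Kdr was also called at P14, adjusted p = 0.0481), and stromal markers summed to at most 2.24 CPM in any ME library. Whether such cells contribute to the 6 genes was not tested.

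The neighbourhood of the genes was looked at with the 3 nearest protein-coding genes on each side, 36 in all, of which 29 were tested. Not all of them lie close by. Distances of the tested genes ran from 2.139 kb (Nle1 from Unc45b) to 4365 kb (Scai from Kynu), and those from Amigo2 from 428 to 601 kb. Of the 29 tested genes, 4 rose and 3 fell at E16, 5 rose and 5 fell at P14, and 4 rose and 8 fell at 8wk, where 13.3%, 12.7% and 14.2% of all genes rose and 8.47%, 9.35% and 14.3% fell. Their median log2 fold change was 0.05, 0.07 and 0.01. Among the nearest genes, Pank4 beside Plch2, at 2.177 kb, fell by 0.49 at 8wk and was not called at the other ages, and Pex10 on its other side fell by 0.39 at 8wk. Epcam, 94.7 kb from Kcnk12, rose by 2.58 ± 0.42 at E16 (adjusted p = 1.30e-04) and 1.86 ± 0.39 at P14 (adjusted p = 0.00142). Slfn5, next to Unc45b, rose by 1.63 ± 0.41 at P14 and 1.68 ± 0.39 at 8wk, and Arhgap15, next to Kynu, rose by 0.57 ± 0.12 at E16 and 0.50 ± 0.12 at P14. Tnfrsf14, the third gene from Plch2, rose at all 3 ages (0.89, 0.75 and 1.08). Rad51d, 19.9 kb from Unc45b, and Rpap3, 428 kb from Amigo2, fell at all 3 ages. With the replicate block Rpap3 (adjusted p = 0.0503) and Slc38a1 (0.0553) were not called at P14 and Slfn8 was (0.57, adjusted p = 0.0429). Among the other neighbours called at 1 or more ages, Endou and Zeb2 rose, Nle1, Msh6, Slc38a1 and Ddx20 fell, and Scai rose at E16 and fell at 8wk.

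**Figure D5:**
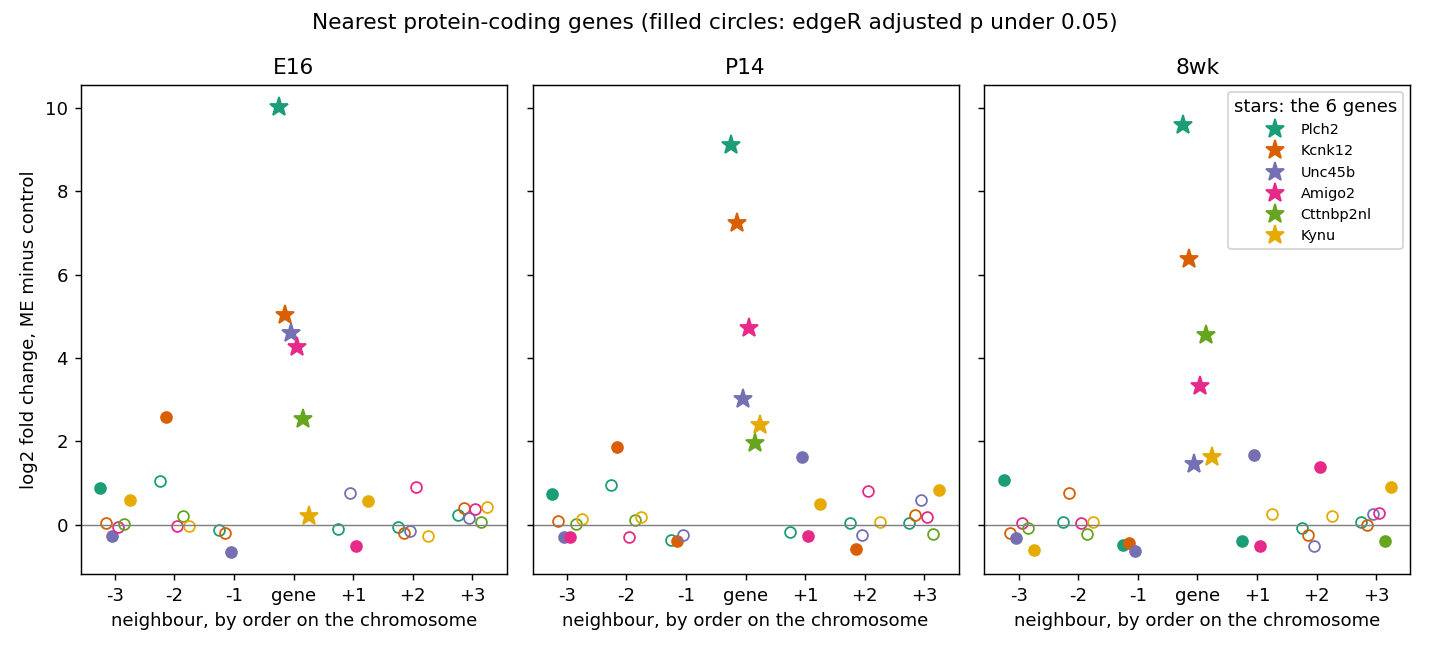
log2 fold change, ME minus control, of the 6 genes (stars) and of their 29 tested protein-coding neighbours (circles, filled where the edgeR adjusted p is under 0.05), placed by order along the chromosome, for each age. Neighbours stay between -0.65 and 2.58 while stars reach 10.01.

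Exons of 4 of the 6 genes overlap an exon of a gene on the other strand, and whether the counts used strand is not stated. Plch2 shares 189 bases with Gm10564, Unc45b 255 with Unc45bos and 151 with Slfn5os, Amigo2 58 with Pced1b and Cttnbp2nl 155 with Gm40117. Gm10564 held 1, 5 and 1 counts in ME cells of E16, P14 and 8wk, against 2, 0 and 3 in controls. Pced1b was the only one with many counts, and fell by 0.58 ± 0.17 at E16 (adjusted p = 0.0185), opposite to Amigo2. Unc45bos held 44, 6 and 17 counts in ME cells of E16, P14 and 8wk, against 6, 2 and 9 in controls. Slfn5os held 13, 0 and 1 counts in ME cells, against 1, 0 and 0 in controls. Both were highest in E16 ME cells, as Unc45b was, and whether such reads bear on Unc45b was not tested. Gm40117 held at most 4 counts in a group.

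The 3 genes whose log2 CPM was most like each gene's over the 24 libraries are given as a description. For Plch2 these were Sh2b3 (Pearson r = 0.955), Map3k3 (0.953) and Etnk1 (0.9496), and for Kcnk12 they were Tsc22d2 (0.977), Gfi1 (0.976) and Srf (0.976). For Unc45b they were St8sia4 (0.898), Spata6 (0.889) and Ranbp9 (0.872), and for Amigo2 they were Fyn (0.974), Fbxo28 (0.973) and Rbpms (0.972). Cttnbp2nl followed Tpm4 (0.964), Tspan2 (0.914) and Lipa (0.913), and Kynu followed Lst1 (0.899), Irf9 (0.882) and Zfp503 (0.869). All points share the split into ME and control, which most of these genes show themselves: Gfi1 rose by 4.02, 4.69 and 4.20 at E16, P14 and 8wk.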

How the data were processed

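The authors deposited a table of raw read counts per gene. Per the submitters' processing notes, reads were aligned with STAR 2.7.9a to GRCm38 and counted with featureCounts 2.0.3 of the Subread package; strand and pair settings are not given in the sources used here. RNA was extracted with a Qiagen RNeasy Plus kit, and a Clontech kit is named for the libraries, per the labels' protocols. Gene positions come from the GENCODE annotation of GRCm38, and promoter windows from RefSeq.

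From the counts, CPM were computed with TMM factors in edgeR 4.0.16 (R 4.3.3), genes were filtered with filterByExpr (minimum count 10), and a quasi-likelihood model with 1 mean per group was fitted to all 24 libraries. The threshold was an adjusted p of 0.05 over all genes tested. The fit was tested on simulated data with known fold changes. The members, gene lists and motifs were chosen with earlier results of these data known. Names in the text follow fixed rules: the 6 members, their neighbours, up to 3 called genes per list, and 3 most alike genes per member; other names were chosen after their values were seen. A neighbouring gene is not reported here by name. Alternatives were other scalings, filters, DESeq2 1.42.0, only the groups compared, a replicate block, each library left out, and 3 settings added after the data were seen. Deviations from the group means correlated above 0.1 in all 4 same-numbered pairs for P14 ME with P14 control (0.137 to 0.232) and 8wk ME with E16 ME (0.121 to 0.478), so blocked values stand beside those results where a call changed. Counting intervals cover counting error only; of counts from 1 to 20, 59.3% to 67.8% per library were even, and if both mates of a pair were counted the intervals are too narrow.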

Additional observations from a re-analysis of the deposited data

Results flagged for a closer look

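In 5 of 36 groups of 4 libraries, 1 library lay apart from the other 3. The gap to its nearest neighbour was above Dixon's limit relative to the group's range. For normally distributed values chance alone gives about 1 in 20 groups, but CPM need not be so distributed. Amigo2 was at 1.33 CPM in 8wk control replicate 1. Kynu was at 5.53 CPM in E16 ME replicate 4, the lowest of its group. Plch2 was at 0.0429 CPM in 8wk control replicate 4 and at 0.0430 CPM in P14 control replicate 1, where the other 3 libraries were at 0, so that the gap spans the whole range by construction and that rate does not apply. Unc45b was at 15.3 CPM in E16 ME replicate 4.

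The ME effect was called different between ages in the main fit for Kynu (2.19 on the log2 scale, P14 minus E16) and Cttnbp2nl (2.60, 8wk minus P14). Each call was past the threshold in 12 of 26 alternatives, with the same direction in all 26. Both genes were chosen on the same ME and control values, so these calls are a description.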

How the results depend on the processing

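The members' results were recomputed under 1116 alternatives in 54 results: 1019 kept direction and call, 51 lost the call, 14 gained one, 7 shifted and 25 changed sign, none of these 25 past the threshold in either fit. The direction of ME minus control held for all 6 genes in all 18 alternatives of each age. Without E16 ME replicate 4, 8wk ME replicate 4 and 8wk control replicate 1 together, the values that changed sign were 0.71 (Amigo2, 8wk minus E16), 0.74 (Kcnk12, 8wk minus P14), 0.20 (Amigo2, 8wk minus P14) and 0.29 (Kcnk12, ME cells at 8wk against P14). With the Y-linked covariate they were -0.041 (Amigo2, P14 minus E16), 0.15 (Plch2, 8wk minus E16), -0.24 (Amigo2, ME cells at 8wk against E16) and 0.22 (Kcnk12, ME cells at 8wk against P14), and with the GC correction 0.19 for the last. Leaving out 1 library each, Plch2 ranged from -2.37 to 1.19 (P14 minus E16), -1.90 to 1.81 (8wk minus E16) and -1.60 to 2.72 (8wk minus P14), Amigo2 from -1.34 to 0.64 (8wk minus E16), -1.68 to 0.17 (8wk minus P14) and -0.0058 to 0.17 (ME cells, 8wk against E16), and Unc45b from -0.43 to 0.12 (ME cells, 8wk against P14). Kcnk12 ranged from -2.078 to 0.34 (8wk minus P14), and in ME cells from -0.60 to 1.05 (P14 against E16), -0.41 to 0.94 (8wk against E16) and -0.82 to 0.90 (8wk against P14). For these, no direction between ages is given.

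The numbers of genes called by edgeR were 4125, 4168 and 5392 for ME against control at E16, P14 and 8wk, 4 (P14 minus E16), 161 (8wk minus E16) and 57 (8wk minus P14) for the difference of ME effects, and 1740 (P14 against E16), 2885 (8wk against E16) and 2166 (8wk against P14) for ME cells. Leaving out 1 library each gave 3024 to 3719, 2875 to 4409 and 3433 to 6571, then 1 to 5, 48 to 896 and 4 to 369, then 1132 to 1992, 2183 to 2885 and 1357 to 2753. For the difference 8wk minus E16, a filter of 1 CPM gave 250, no filter 107, DESeq2 603 and only the groups compared 55. DESeq2 gave 29 for P14 minus E16 and 298 for 8wk minus P14, where only the groups compared gave 0 (edgeR; 1921 at an unadjusted p under 0.05). Only the groups compared gave 2907 for ME against control at 8wk, 1793 for ME cells at 8wk against E16 and 1363 at 8wk against P14. Without the same 3 libraries (added after the data were seen) counts were 10, 1362 and 1009 for the 3 differences, 2623 for ME cells at P14 against E16 and 3454 at 8wk against P14. The Y-linked level as a covariate, also added then, gave 1 and 59 for P14 minus E16 and 8wk minus E16. Scaling by library size alone moved the share of higher calls from 61.1% to 74.6% at E16, from 57.5% to 70.5% at P14, and from 54.4% to 38.7% in ME cells at 8wk against P14, and the median log2 difference of all genes by up to 0.088 (E16).

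In the other comparisons the numbers were not taken to pair samples: over all groups 29 of 60 same-numbered pairs had deviations correlated above 0.1, and 0, 2 and 1 of 4 ME libraries at E16, P14 and 8wk correlated best with the control of their own number. With the replicate block 357 genes were called for 8wk minus E16, and in the edgeR fits the Kynu difference at P14 against E16 had an adjusted p of 0.0528, while Unc45b (0.0307) and Cttnbp2nl (0.0324) were called at 8wk minus E16. The block also gave 4257, 4333 and 5590 calls for ME against control. A GC correction, added after the data were seen, changed no call of the 6 genes in ME cells, and Kynu was called for 8wk minus E16 (1.58, adjusted p = 0.0274). The cause was not tested. Depth limits the near-0 controls, where Plch2 held 2 counts per group at P14 and 8wk.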

Other observations

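For Kcnk12, the ME libraries ranked, highest to lowest, as replicates 1, 2, 3 and 4 at all 3 ages. The same ranking at all 3 ages was seen in 238 of 18931 tested genes (1.26%) and the opposite ranking in 27 (0.143%); this was looked at after the values were seen, and the labels do not say what the replicate numbers mark. Its most alike genes, Tsc22d2, Gfi1 and Srf, were chosen by correlation over the same libraries. Mllt1 was at 55.1, 58.1, 60.05 and 41.55 CPM in E16 ME libraries 1 to 4. It was at 89.3, 73.7, 63.8 and 39.8 CPM at P14, and at 54.0, 54.8, 50.8 and 35.7 CPM at 8wk. ME replicate 4 was thus the lowest in Mllt1 at every age. Whether the Mllt1 level bears on that of Kcnk12 was not tested.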
